A study of Mus musculus with 9 samples.

Results

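Iron and heme handling was followed through 9 genes chosen by name: the importers Tfrc, Slc11a2 and Slc11a1, the hemoglobin scavenging genes Hp and Cd163, the heme breakdown genes Hmox1 and Blvrb, the storage gene Fth1 and the exporter gene Slc40a1. All 9 were measured among 18193 genes, by 19 probe sets, each being a group of short oligonucleotides on the array that reads 1 transcript. The cells came from wild-type C57/Bl6 mouse bone marrow sorted as LSK, the lineage-negative, Sca-1-positive, c-Kit-positive fraction that holds stem and early progenitor cells. They spent 3 days on OP9-GFP, a control feeder of bone marrow stromal cells, on OP9-DL1, the feeder that presents the Notch ligand Delta-like 1, or on OP9-DL1 with 1 µM Compound E, an inhibitor of the γ-secretase that cleaves Notch receptors, and the cells that had not attached were harvested. Each group had 3 arrays. No OP9-GFP culture with Compound E was analysed here, so an effect of the inhibitor on Notch and one on other γ-secretase substrates or on the cells directly cannot be told apart. Whether replicates were separate cultures or animals is not given in the labels, and the p-values then reflect only the spread among these samples, which may be technical.

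Cells take up iron bound to transferrin through the transferrin receptor, pump it out of endosomes by divalent metal transporters, store the surplus in ferritin and release it through ferroportin. Macrophages also take up hemoglobin from dying red cells, split its heme with heme oxygenase into iron, carbon monoxide and biliverdin, and return the iron to the blood. Much of this system is set after transcription, by iron regulatory proteins that bind the messages of transferrin receptor, ferritin and ferroportin, so an RNA level is only one layer of it.

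Values are log2 per probe set, and a difference of 1 is a 2-fold change. An SD is taken over the 3 arrays of a group. A gene is said to have risen or fallen where limma's test over all 18193 genes gave a Benjamini-Hochberg adjusted p under 0.05. Each gene was tested by its brightest probe set. Probe sets for bacterial transcripts read up to 3.64, which is called background here, and the tested probe sets of all 9 genes lay above it on every array. Precision is limited by the number of arrays, with a median standard error of 0.104 for OP9-DL1 against OP9-GFP. Arrays of 1 group correlated across genes, which are not independent replicates, with r of 0.9966 to 0.9984. The LSK marker Kit averaged 8.94 with the control feeder, 10.22 with OP9-DL1 alone and 8.14 under the inhibitor. Kit was among 6 of 8 stem and early progenitor markers that rose on OP9-DL1. Cd34 (log2 difference -0.35) and Flt3 (-1.51), named after their values were seen, were the 2 that fell. Genes typical of feeder stroma were bright as well, Cxcl12 at 12.21 and Sparc at 11.43 on OP9-GFP, and their part in the results was not tested. In such bulk RNA, fewer cells of a type and less RNA per cell cannot be told apart.

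Promoter sequence from RefSeq (GRCm38.p6) was on hand for 5 of the 9 genes, and 3 promoters are printed: those of Tfrc and Cd163, which both fell with Compound E, and that of Blvrb, which passed no test. They end at the last base before the annotated gene, on the plus strand: chr16:32608646-32608895 for Tfrc, chr6:124304401-124304635 for Cd163 and chr7:27447728-27447977 for Blvrb. Capitals mark matches on either strand to CCAAT, to GGGCGG (the GC box), to TGANNNNGC (the core of the antioxidant response element) and to CACGTG (an E-box bound by Myc).
Tfrc: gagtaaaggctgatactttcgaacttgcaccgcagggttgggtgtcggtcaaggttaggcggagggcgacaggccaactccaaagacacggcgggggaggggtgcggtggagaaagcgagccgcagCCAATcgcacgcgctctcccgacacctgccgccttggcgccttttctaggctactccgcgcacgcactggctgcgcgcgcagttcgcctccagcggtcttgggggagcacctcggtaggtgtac
Cd163: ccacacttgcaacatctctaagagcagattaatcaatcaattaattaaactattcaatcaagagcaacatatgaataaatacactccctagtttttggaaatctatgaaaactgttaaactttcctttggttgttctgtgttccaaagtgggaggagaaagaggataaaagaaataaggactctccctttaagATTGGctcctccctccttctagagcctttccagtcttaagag
Blvrb: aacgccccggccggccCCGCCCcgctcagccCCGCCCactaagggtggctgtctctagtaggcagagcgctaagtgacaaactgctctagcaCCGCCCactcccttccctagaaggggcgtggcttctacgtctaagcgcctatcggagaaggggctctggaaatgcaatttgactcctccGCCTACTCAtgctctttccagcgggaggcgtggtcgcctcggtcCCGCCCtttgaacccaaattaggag
The Tfrc promoter held 1 CCAAT, starting 124 bases before the gene, and 64.8% of its bases were G or C. That of Cd163 held 1 match to CCAAT on the minus strand, starting 42 bases before the gene, in a window with 36.6% G or C. The Blvrb promoter held 4 GC boxes and 1 TGANNNNGC, all on the minus strand. Of 32851 promoters 33.8% held CCAAT in the 250 bases before the start, 32.7% GGGCGG, 35.2% TGANNNNGC and 6.02% CACGTG, and in the shorter Cd163 window CCAAT stood in 32.6%. No motif was shared by all 3, and no match overlapped another.

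The genes of this group moved in different directions. On OP9-DL1 the RNA of Tfrc and Slc11a1 rose and that of Hmox1, Hp and Fth1 fell, all by less than 2-fold. With Compound E on the same feeder, Hmox1, Hp and Slc11a1 rose while Cd163, Slc40a1 and Tfrc fell. Against OP9-GFP, the inhibited cultures held more Hmox1, Slc11a1 and Hp and less Cd163, Slc40a1 and Tfrc. In the first comparison 2 of the 9 rose and 3 fell, where 32.6% of all genes were called, 15.9% higher and 16.7% lower. In the second 3 rose and 3 fell, where 46.7% of all genes were called, 25.1% higher and 21.6% lower. In the third 3 rose and 3 fell, where 22.7% were called, 12.1% higher and 10.6% lower. The median difference over the 9 genes was -0.01, 0.09 and 0.06 in that order, beside -0.02, 0.08 and 0.05 over all genes, so the group had no common direction. The 3 comparisons share arrays, and their values are not independent of each other.

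**Figure D1:**
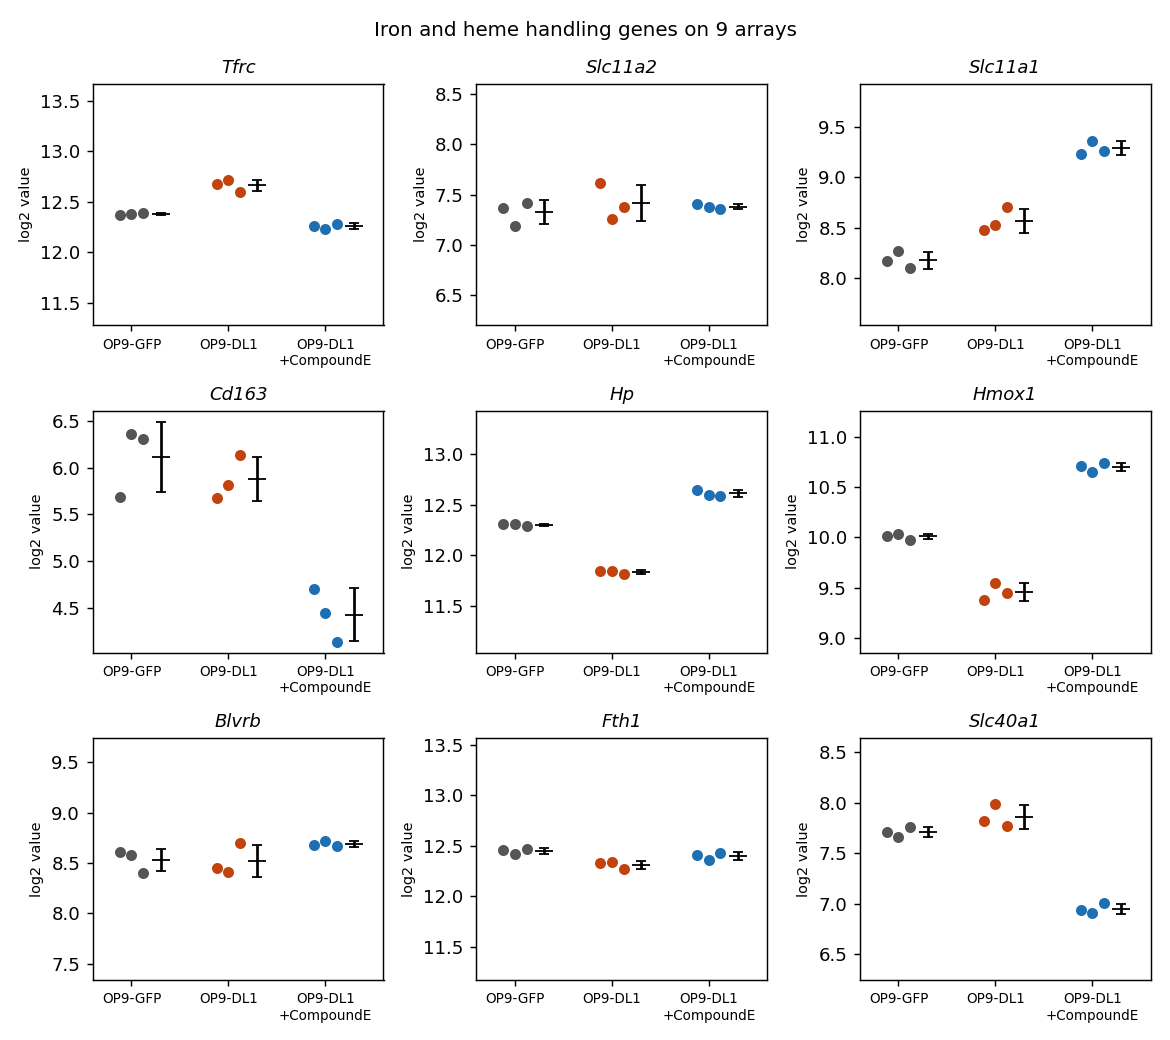
Log2 value of the tested probe set of each of 9 iron and heme handling genes on each of 9 arrays (points, 3 per group), with the group mean and SD beside them; every panel has a y axis of about the same length. Hmox1 and Hp are lowest on OP9-DL1 and highest with Compound E, Slc11a1 climbs from OP9-GFP to OP9-DL1 to Compound E, and Cd163 and Slc40a1 are lowest with Compound E.

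Transferrin receptor, Tfrc, brings iron-loaded transferrin into the cell and is abundant on dividing and erythroid cells. It read 12.37, 12.38 and 12.39 on OP9-GFP, 12.68, 12.71 and 12.60 on OP9-DL1, and 12.26, 12.23 and 12.28 with Compound E. The 3 groups did not overlap, with OP9-DL1 highest and Compound E lowest. Tfrc rose on OP9-DL1 by a log2 of 0.29 ± 0.04 (SE), 1.22-fold, with a limma adjusted p of 1.53e-05, and fell with Compound E by 0.41 ± 0.04 (SE), with an adjusted p of 1.78e-07. Against OP9-GFP the inhibited cultures were lower by 0.12 (adjusted p = 0.0314), a call that ended in 9 of 18 alternatives, whose adjusted p ran from 0.0206 to 0.178. It was lost without OP9-GFP replicate 1 (0.0772), 2 (0.0883) or 3 (0.0823) and without Compound E replicate 1 (0.0642) or 2 (0.081), with the replicate number as a block (0.0583), and it was lost with probe sets averaged, where the difference was -0.19 (0.124). The other 5 Tfrc probe sets, 3 of them the array maker's controls along the transcript, were higher on OP9-DL1 by 0.14 to 0.43, none past the test over all probe sets, and with Compound E their differences were -0.76 to -0.15, with 3 of the 5 past it.

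Megakaryocyte markers moved with Tfrc, as did most feeder markers and part of the erythroid and of the stem and early progenitor markers. Most proliferation genes did not. All 11 megakaryocyte markers rose on OP9-DL1 and fell with Compound E, with summed levels, as a log2, of 13.18 to 13.20 on OP9-GFP, 14.57 to 14.58 on OP9-DL1 and 12.70 to 12.76 with Compound E. Of 8 stem and early progenitor markers 6 rose and 2 fell on OP9-DL1, and 1 rose and 6 fell with Compound E. The 2 were Cd34, the brightest of the 8, and Flt3, which was also the 1 that rose with Compound E (1.05). Sums over the 8 were 11.95 to 12.05, 12.17 to 12.29 and 11.37 to 11.55 in the same order of groups. Of 12 erythroid markers 6 rose and then 6 fell, and their summed level ran from 11.01 to 11.12 on OP9-GFP, from 12.75 to 12.79 on OP9-DL1 and from 9.78 to 9.92 with Compound E. Car2, Tal1 and Hemgn were the brightest of them, while Hba-a1, Rhag and Epb42 stayed at background in every group. Klf1, at 4.42, 4.91 and 4.42, passed no test. Slc4a1 and Ermap passed none either, with group means of 3.52 to 3.76, near background. Of 11 proliferation genes 1 rose and 6 fell on OP9-DL1, and 3 rose and 1 fell with Compound E. Their summed levels were 14.63 to 14.66, 14.55 to 14.57 and 14.47 to 14.53 in the same order of groups. The feeder markers summed to 13.53 to 13.55, 14.12 to 14.14 and 13.55 to 13.56, with Lum and Dcn at background. Of these 12 markers 9 rose on OP9-DL1, and 9 fell with Compound E. The part of any of these in the Tfrc differences was not tested. Beside the marker counts here and below, 32.6% of all genes were called on OP9-DL1 and 46.7% with Compound E against OP9-DL1. The share was 22.7% with Compound E against OP9-GFP. Marker counts were not tested against these shares.

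Slc11a1 and Slc11a2 encode related transporters of divalent metals. Slc11a1 sits in the phagosome membrane of macrophages and neutrophils, where it draws metal out of the phagosome, and Slc11a2 carries iron across the gut wall and out of transferrin endosomes. Slc11a1 read 8.17, 8.27 and 8.10 on OP9-GFP, 8.48, 8.52 and 8.70 on OP9-DL1, and 9.23, 9.36 and 9.27 with Compound E. No groups overlapped, and each step was upward. The rise was 0.39 ± 0.08 (SE) on OP9-DL1, with a limma adjusted p of 0.0007, and a further 0.72 ± 0.08 (SE) with Compound E, with an adjusted p of 7.92e-07. Inhibited cultures thus held 2.16-fold more Slc11a1 RNA than OP9-GFP cultures (95% interval of the log2 difference 0.95 to 1.27, limma adjusted p = 5.44e-08), and 1.01% of all genes differed more between these groups.

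The tested Slc11a2 probe set read 7.37, 7.19 and 7.41 on OP9-GFP, 7.61, 7.25 and 7.38 on OP9-DL1, and 7.41, 7.38 and 7.36 with Compound E. These ranges overlap throughout. The difference was 0.09 on OP9-DL1 (95% interval -0.13 to 0.31) and -0.03 with Compound E (-0.25 to 0.19), and neither passed the test. Its other probe sets went apart with Compound E. One of them rose from 6.09 ± 0.11 to 6.42 ± 0.05 (SD, n = 3 arrays, limma adjusted p = 0.0266 over all probe sets), while another went from 6.29 ± 0.08 to 5.99 ± 0.10 (SD, n = 3, adjusted p = 0.0519), and the fourth was at background in every group. Slc11a2 makes several transcripts that differ at their ends, and the files do not say which of them each probe set reads.

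**Figure D2:**
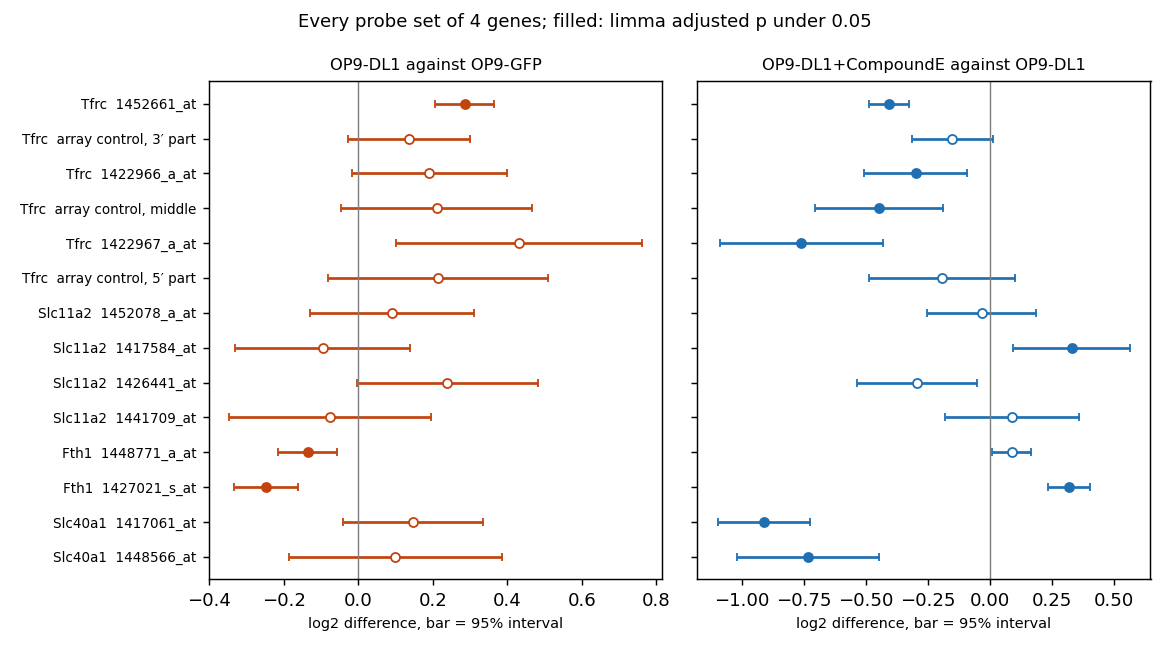
Log2 difference with its 95% interval for every probe set of Tfrc, Slc11a2, Fth1 and Slc40a1 on OP9-DL1 against OP9-GFP (left) and with Compound E against OP9-DL1 (right); filled points passed limma's test over all probe sets at an adjusted p under 0.05. All 6 Tfrc probe sets lie above 0 on the left and below 0 on the right, both Slc40a1 probe sets fall with Compound E, and the 4 of Slc11a2 scatter around 0.

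Haptoglobin, Hp, binds free hemoglobin, and Cd163 is the macrophage receptor that takes up the complex. Hp is made by liver and also by neutrophils and monocytes. Its values were 12.31, 12.31 and 12.29 on OP9-GFP, 11.84, 11.84 and 11.82 on OP9-DL1, and 12.65, 12.60 and 12.59 with Compound E. Groups were far apart beside a spread of at most 0.03 (SD). Hp fell on OP9-DL1 by 0.47 ± 0.04 (SE), to 72.2% of its OP9-GFP level, with a limma adjusted p of 1.96e-08. It rose with Compound E by 0.78 ± 0.04 (SE, adjusted p = 2.45e-11), to 1.24-fold its OP9-GFP level (adjusted p = 1.26e-05).

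Cd163 took another course. It read 5.69, 6.36 and 6.30 on OP9-GFP, 5.68, 5.81 and 6.13 on OP9-DL1, and 4.70, 4.45 and 4.14 with Compound E. The first 2 groups overlap, and every Compound E array lies below both. The OP9-DL1 difference was -0.24 (95% interval -0.65 to 0.17) and did not pass the test. With Compound E Cd163 fell by 1.44 ± 0.19 (SE), 2.72-fold, with a limma adjusted p of 9.74e-06, and it stood 3.21-fold below OP9-GFP (adjusted p = 1.14e-05), a difference exceeded by 0.176% of all genes. Because Cd163 is dim, its log2 differences shrank to -0.76 and -0.92 when 32 was added to each value on the linear scale, and both stayed called.

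The macrophage markers did not follow a single course either. Of 15, 13 fell on OP9-DL1 and 11 rose with Compound E, and their summed level ran from 14.75 to 14.80 on OP9-GFP, from 13.61 to 13.66 on OP9-DL1 and from 14.91 to 14.94 with Compound E, led by Lyz2, Csf1r and Mpeg1. Marco and C1qa were at background. In inhibited cultures against OP9-GFP 8 markers were higher and 4 lower. The 4, named after their values were seen, were C1qc (-2.63) and C1qb (-2.56), chains of complement C1q, Mrc1, the mannose receptor (-1.21), and Mertk, a receptor for dying cells (-1.02). Cd163 and Slc40a1 stood below OP9-GFP beside these 4, and Hmox1, Hp and Slc11a1 stood above it beside the 8. This pairing did not hold throughout. On OP9-DL1 the 4 fell (C1qb -2.35, C1qc -2.26, Mrc1 -3.59, Mertk -1.42), whereas Cd163 and Slc40a1 were not called. Slc11a1 rose there (0.39) and Hmox1 and Hp fell, where 13 of the 15 markers fell. With Compound E against OP9-DL1 Mrc1 (2.38) and Mertk (0.40) rose, C1qb and C1qc were not called, and Cd163 and Slc40a1 fell. Granulocyte markers summed to 15.36 to 15.38, 15.60 to 15.63 and 15.47 to 15.49 in the 3 groups, led by S100a9, S100a8 and Mpo, with none of 13 at background. They had 6 higher and 6 lower on OP9-DL1, then 5 higher and 6 lower with Compound E. The part of macrophages or granulocytes in the differences of Hp, Cd163, Slc11a1, Hmox1 and Slc40a1 was not tested.

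Hmox1 encodes the inducible heme oxygenase, which opens the heme ring, and Blvrb a biliverdin reductase that is abundant in red cells. Hmox1 read 10.02, 10.03 and 9.98 on OP9-GFP, 9.38, 9.55 and 9.45 on OP9-DL1, and 10.71, 10.65 and 10.74 with Compound E. The groups did not overlap. Hmox1 fell on OP9-DL1 by 0.55 ± 0.06 (SE), to 68.3% of its OP9-GFP level, with a limma adjusted p of 6.28e-07. With Compound E it rose 2.36-fold, by 1.24 ± 0.06 (SE, adjusted p = 1.84e-11), and ended 1.61-fold above OP9-GFP (adjusted p = 2.98e-07). Leaving out any 1 array, or changing any other setting tried, kept all 3 calls.

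Of the 3 other heme breakdown genes, Hmox2 and Blvra passed the test in the first 2 comparisons and Blvrb in none of the 3. Blvra also passed in the third (0.25, limma adjusted p = 0.0185). That call was lost without the intensity trend (0.0724), without OP9-GFP replicate 3 (0.0784) and without Compound E replicate 1 (0.0571). Hmox2, the constitutive heme oxygenase, fell on OP9-DL1 from 10.12 to 9.65 and rose with Compound E to 10.20. Blvra, the main biliverdin reductase of adult tissues, fell from 10.21 to 9.41 and rose to 10.47. Blvrb read 8.61, 8.58 and 8.40 on OP9-GFP, 8.45, 8.41 and 8.70 on OP9-DL1, and 8.68, 8.72 and 8.66 with Compound E, with a difference of -0.01 on OP9-DL1 (95% interval -0.19 to 0.17). Its Compound E difference of 0.17 (-0.01 to 0.35, adjusted p = 0.118) passed without OP9-DL1 replicate 3, the highest array of its group (0.26, adjusted p = 0.0205), and with arrays centred on their medians (0.22, 0.029), over a range of 0.0205 to 0.352.

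Ferritin heavy chain, Fth1, oxidises iron for storage in the ferritin shell. Its brightest probe set read 12.46, 12.41 and 12.47 on OP9-GFP, 12.33, 12.34 and 12.27 on OP9-DL1, and 12.40, 12.36 and 12.43 with Compound E. The OP9-DL1 arrays were the lowest, and the 2 other groups overlap. Fth1 fell on OP9-DL1 by 0.14 ± 0.04 (SE, limma adjusted p = 0.0103), which ended without the intensity trend (0.114), the adjusted p running from 0.000355 to 0.114 over the alternatives. The difference of 0.09 with Compound E did not pass (adjusted p = 0.0698). It passed with probe sets averaged (0.20, adjusted p = 0.000151), with arrays centred on their medians (0.0260) and without Compound E replicate 2 (0.0387), and the highest adjusted p was 0.24. The second Fth1 probe set fell on OP9-DL1 from 12.23 ± 0.0035 to 11.98 ± 0.05 and rose with Compound E to 12.30 ± 0.06 (SD, n = 3 arrays), both past the limma test over all probe sets (adjusted p = 0.000174 and 8.38e-06). Between inhibited and OP9-GFP cultures the Fth1 difference was -0.05 (95% interval -0.13 to 0.03).

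Ferroportin, Slc40a1, is the known route of iron out of the cell. It read 7.71, 7.66 and 7.76 on OP9-GFP, 7.82, 7.99 and 7.77 on OP9-DL1, and 6.94, 6.91 and 7.0 with Compound E. Every Compound E array was lower than every other array. On OP9-DL1 the values lay just above those on OP9-GFP, and the difference of 0.15 (95% interval -0.04 to 0.33) did not pass the test. With Compound E Slc40a1 fell by 0.91 ± 0.09 (SE), 1.88-fold, with a limma adjusted p of 2.64e-07, to 58.9% of its OP9-GFP level (adjusted p = 1.30e-05). Its second probe set fell too, by 0.73 from 5.10 ± 0.05 to 4.36 ± 0.07 (SD, n = 3, adjusted p = 0.000368 over all probe sets). Spic, a transcription factor known to drive Slc40a1 in red pulp macrophages of the spleen, was at background on all 3 OP9-GFP arrays, rose to 8.09 ± 0.07 (SD, n = 3) on OP9-DL1 and fell with Compound E to 3.54, 3.81 and 3.81, at or near background, so no fold is given. Its part in the Slc40a1 values was not tested.

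**Figure D3:**
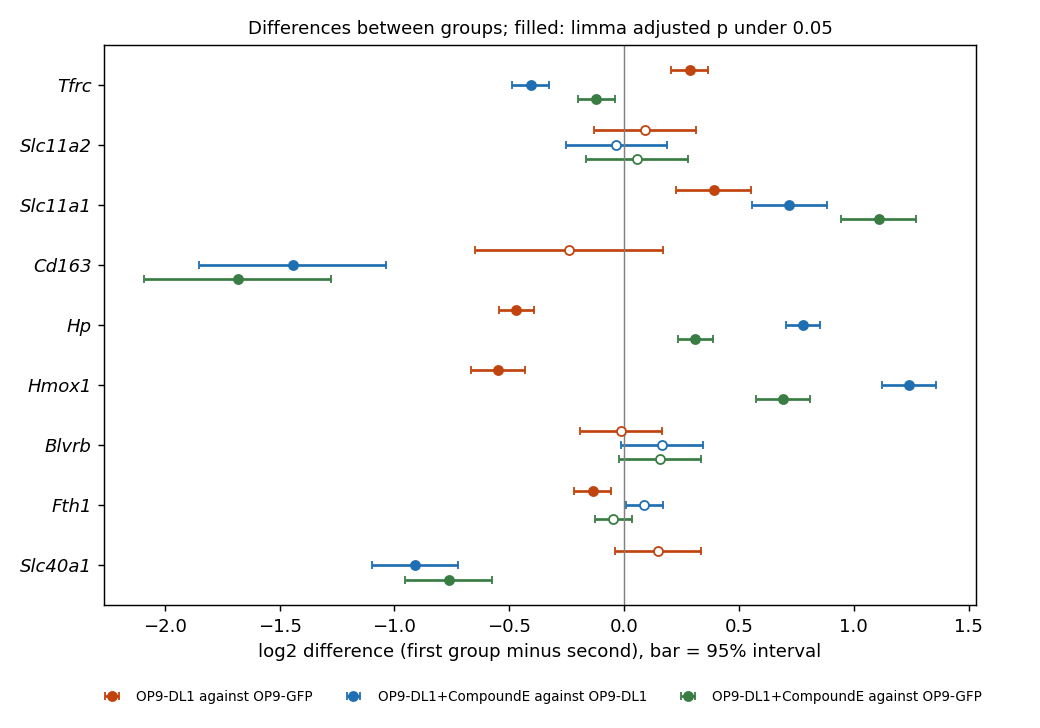
Log2 difference of each gene in the 3 comparisons, first group minus second, with its 95% interval; filled points passed limma's test at an adjusted p under 0.05. Hmox1 and Hp lie below 0 on OP9-DL1 against OP9-GFP and above 0 in both Compound E comparisons, Cd163 and Slc40a1 lie below 0 in both Compound E comparisons, and Blvrb and Slc11a2 passed none.

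Array by array, the OP9-DL1 and OP9-GFP values were fully apart for 6 of the 9 genes, beside 43.8% of all genes. It was 7 of 9 with Compound E against OP9-DL1, beside 52.6%, and 7 of 9 with Compound E against OP9-GFP, beside 34.8%. Blvrb in the last comparison, Fth1 in the second and Slc40a1 in the first did not overlap and yet did not pass the test.

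A further 68 genes of the system were listed by role and 62 of them measured. On OP9-DL1 14 of the 62 rose and 17 fell, beside 15.9% and 16.7% of all genes. The median difference was 0.0010, beside -0.02 over all genes. With Compound E 21 rose and 19 fell, beside 25.1% and 21.6%, with a median of 0.09, beside 0.08. Against OP9-GFP the inhibited cultures had 15 higher and 8 lower, beside 12.1% and 10.6%, with a median of 0.10, beside 0.05. The 8 became 5 without OP9-GFP replicate 2 or 3. The same shares of all genes stand beside the counts by role that follow, which were not tested against them.

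In what follows the values in brackets are log2 differences, first on OP9-DL1 against OP9-GFP and then with Compound E against OP9-DL1. Of 5 further genes of transferrin and iron uptake 2 rose and 2 fell on OP9-DL1, and 1 rose and 2 fell with Compound E. Tfr2, a second transferrin receptor that senses iron, rose on OP9-DL1 (1.56) and fell with Compound E (-1.80). With 32 added on the linear scale these were 0.93 and -1.03, both called. Lcn2, which binds bacterial iron carriers and is stored in neutrophil granules, rose (1.74) and then fell (-0.58), to 1.17 above OP9-GFP. Slc39a8, a zinc and iron importer, fell (-0.51) and then rose (0.46). With probe sets averaged these were -0.26, no longer called (adjusted p = 0.0564), and 0.26, still called. Slc39a14, a related importer, fell on OP9-DL1 (-0.30, limma adjusted p = 0.0366), a call lost with 32 added (0.0545) and without OP9-GFP replicate 3 (-0.19, 0.199), OP9-DL1 replicate 1 (0.119) or OP9-DL1 replicate 3 (0.0885), over a range of 0.0219 to 0.199. The count of 2 falls became 1 in each of these settings and with probe sets averaged. The count of 1 rise with Compound E became 2 with quantile normalization, with arrays centred on their medians and without OP9-GFP replicate 3. Of 5 genes of heme and hemoglobin uptake 2 fell on OP9-DL1 and 2 rose with Compound E. Lrp1, the receptor for heme bound to hemopexin, fell (-1.76) and then rose (2.13), and Slc46a1, a heme and folate transporter, fell (-0.56) and then rose (0.80). Hpx, hemopexin itself, was at background in every group. Of the exporters, Abcg2, which pumps out porphyrins, rose (0.54) and then fell (-1.22). Cp, the ferroxidase ceruloplasmin, rose by 1.56 on OP9-DL1 and stood 1.97 above OP9-GFP with Compound E (0.80 and 1.07 with 32 added, both called). Hamp, hepcidin, which blocks ferroportin, was at background in every group.

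Of 8 genes of iron sensing and hepcidin control 3 fell on OP9-DL1, and 5 rose and 1 fell with Compound E. Among the 5 were Bmp6, with means of 3.24, 3.18 and 3.59 in the 3 groups, all under background, and Tmprss6. The latter averaged 3.54, 3.63 and 4.15, above background only with Compound E. The 5 became 3 with quantile normalization and without OP9-DL1 replicate 1, OP9-DL1 replicate 3 or Compound E replicate 1. Hfe, mutated in hemochromatosis, fell (-1.30) and then rose (1.67). Fbxl5, which degrades an iron regulatory protein when iron is high, fell (-0.34) and then rose (0.71). Aco1, an iron regulatory protein, fell (-0.51, or -0.26 with probe sets averaged, still called) and then rose (0.65). The 1 that fell was Neo1, a co-receptor in hepcidin control (-0.62 with Compound E, or -0.23 and no longer called with probe sets averaged, adjusted p = 0.0547). In the storage list, Ncoa4, which carries ferritin to the lysosome for breakdown, fell with Compound E (-0.40).

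Heme synthesis genes were split. With Compound E 3 of 8 rose and 3 fell, and on OP9-DL1 2 rose and 2 fell. Alas1, the first enzyme of the path outside red cells, fell on OP9-DL1 (-1.01) and rose with Compound E (1.12). Alad, the next enzyme, went the other way, with a rise (0.61) and then a fall (-0.84, or -0.55 with probe sets averaged, still called). Alas2, the erythroid counterpart of Alas1, was at background in every group. Of 8 genes of mitochondrial iron and iron-sulfur clusters 2 rose and 3 fell on OP9-DL1, the 2 becoming 1 with probe sets averaged. With Compound E 3 rose and 3 fell, and the count of falls became 1 under 12 of 18 alternatives, among them leaving out any single array other than OP9-DL1 replicate 2 and Compound E replicate 1. Iscu, the scaffold for cluster assembly, fell (-0.35) and then rose (0.58), and the mitochondrial iron importer gene Slc25a28 fell (-0.49) and then rose (0.73). Isca1, of late cluster assembly, went the other way, with a rise (0.49) and then a fall (-0.54), or 0.29 and -0.28 with probe sets averaged, both called. Abcb10, a transporter of the inner mitochondrial membrane, rose on OP9-DL1 (0.27), which was lost with probe sets averaged (0.12, adjusted p = 0.349). Its fall with Compound E (-0.13, limma adjusted p = 0.0496) came with 3 identical Compound E values and was lost in 14 of 18 alternatives, over a range of 0.0104 to 0.493, with the sign turned when probe sets were averaged. Among the array omissions it was kept only without OP9-DL1 replicate 2.

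**Figure D4:**
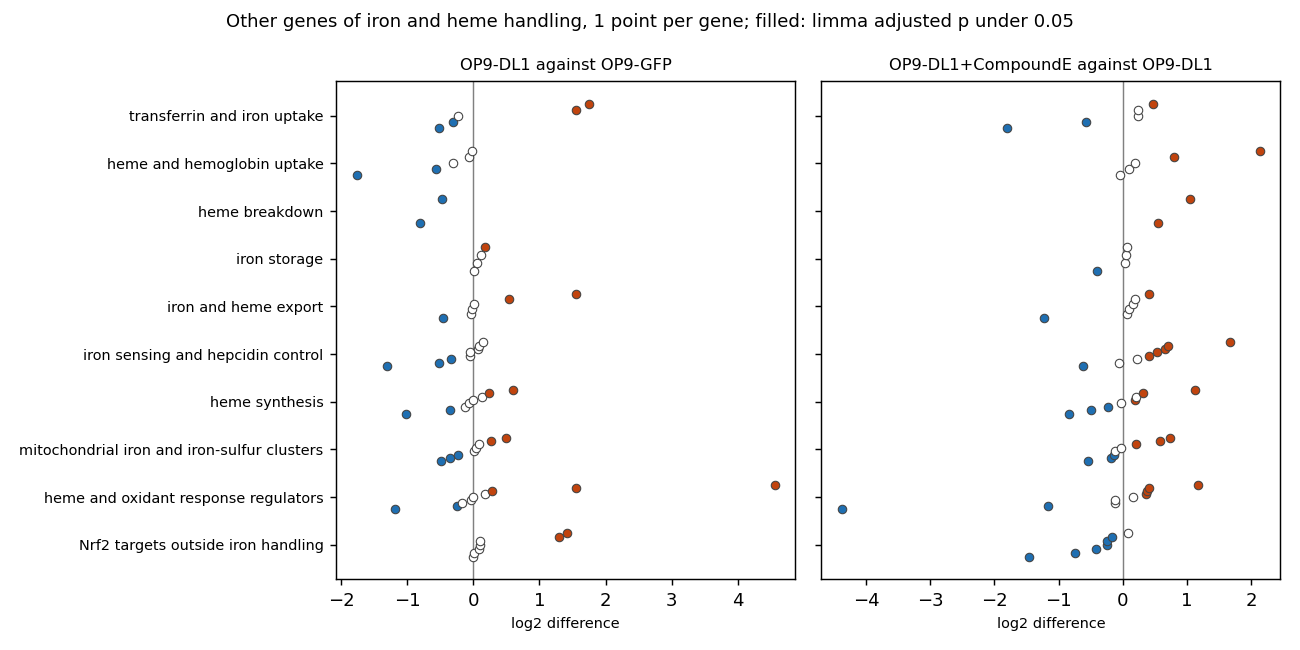
Log2 difference of 62 further genes of iron and heme handling, 1 point per gene, grouped by role, on OP9-DL1 against OP9-GFP (left) and with Compound E against OP9-DL1 (right); orange points rose and blue points fell at a limma adjusted p under 0.05, and open points did not pass. Both heme breakdown genes fell on the left and rose on the right, and 6 of 7 Nrf2 targets fell on the right.

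Hmox1 is a textbook target of the oxidant sensor Nrf2, encoded by Nfe2l2, and is held down by Bach1, a repressor that heme releases. Nfe2l2 was at 10.44 ± 0.12 with the control feeder, 10.44 ± 0.06 with OP9-DL1 alone and 10.86 ± 0.08 under the inhibitor (SD, n = 3 arrays), a rise of 0.42 over either. Bach1, named after its values were seen, fell on OP9-DL1 (-0.24) and rose with Compound E (0.37). The part of Nrf2 or Bach1 in the Hmox1 values was not tested. Of 7 other Nrf2 targets measured, 6 fell with Compound E, beside 21.6% of all genes. With probe sets averaged 3 of the 7 fell and 1 rose. Nqo1, a quinone reductase, rose on OP9-DL1 (1.41) and fell with Compound E (-1.45, or 0.93 and -0.95 with 32 added, both called). Slc7a11, the cystine importer, rose (1.30) and then fell (-0.74), and Gclc, of glutathione synthesis, fell with Compound E (-0.42). Gsr, glutathione reductase, was the member that did not fall, at 0.09 (adjusted p = 0.073), and is named after its value was seen. Epas1, the hypoxia factor HIF-2α, rose (1.55) and then fell (-1.17, or 0.84 and -0.62 with probe sets averaged, both called), and Nr1h3, a sterol receptor of macrophages, fell (-1.18) and then rose (1.17, or -0.76 and 0.76 with 32 added, both called).

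For each gene that passed a test, the 3 genes with the most similar course over the 9 arrays were found, by the root mean square difference of log2 values after centring each gene on its own mean. For Hmox1 these were 6430548M08Rik (0.0794), Ltb4r1 and Fam160a2. Those nearest to Hp were Ostf1 (0.0345), Fcer1g and Atp6v0d1, and those nearest to Slc11a1 were Abi3 (0.063), Afdn and Upp1. Slc40a1 was closest to Mtx3 (0.0599), Etv5 and Rbm6, and Tfrc to Tex30 (0.0339), Ptch1 and Morc2a. Fth1, whose own differences were small, lay near Arpc4 (0.0248), Slc30a5 and Ckap4. Cd163, the gene with the widest replicate spread here, had its nearest neighbours farther off, with Kcnq1ot1 at 0.271, then Ptprf and Mycn.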

How the data were processed

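RNA of cells harvested from LSK cultures was measured on 9 one-colour oligonucleotide arrays, 3 per group by sample title, after amplification of 25 ng RNA per the labels' protocols. The values used are log2 signals as deposited by the authors. The submitters' processing notes name MAS5 and GCRMA 2.4.1 without saying which step each did. How far, and in which direction, folds of dim genes are off is therefore unknown. Some genes had exactly equal values on arrays of a group (11.2%, 7.44% and 5.48% of genes in the control, OP9-DL1 and Compound E groups), but no probe set of the 9 genes did.

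Of 45101 probe sets 34945 had 1 gene symbol in the platform table, updated through a RefSeq table of GRCm38.p6. Each gene took its probe set with the highest mean, without array controls. In R 4.3.3, limma 3.58.1 with eBayes and an intensity trend was fitted to all 9 arrays with no filter, and p-values were adjusted over 18193 genes, or over all probe sets for single probe sets. The procedure was tested on simulated data. Up to 4 further genes per list were named by the smallest p above background. Members and lists were chosen with earlier results of these data known. Alternatives were log2(value + 32), quantile normalization, median centring, a background filter, averaged or all probe sets, no trend, a fit to just the 6 arrays of a comparison, a block for the replicate number, and each array left out.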

Additional observations from a re-analysis of the deposited data

How the results depend on the processing

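Over 18 alternatives for each of 27 gene differences, 460 of 486 values kept their direction and their side of the threshold. Of the rest 10 lost a call, 5 gained one and 11 changed sign, each of these 11 without a call in either setting. The sign changes were those of Blvrb on OP9-DL1 with quantile normalization (0.010), of Slc11a2 with Compound E against OP9-DL1 with arrays centred on their medians (0.019) and with probe sets averaged (0.022), and of Fth1 with Compound E against OP9-GFP with probe sets averaged (0.012). With single arrays left out Blvrb on OP9-DL1 ran from -0.10 to 0.041, Slc11a2 from -0.0081 to 0.17 on OP9-DL1, from -0.11 to 0.065 with Compound E against OP9-DL1 and from -0.010 to 0.10 against OP9-GFP. With arrays centred on their medians 5 of the 9 genes rose with Compound E against OP9-DL1 in place of 3. With each probe set tested by itself, 11192, 17598 and 8549 passed in the 3 comparisons in place of 5934, 8500 and 4135. The former are out of nearly all 45101 probe sets and the latter out of 18193 genes, so the counts cannot be compared directly. For the 62 further genes the count lower in inhibited than in OP9-GFP cultures ran from 5 to 8 with single arrays left out. Of 1332 values for 74 called differences of named further genes, 1265 kept direction and call, 65 lost the call and 2 changed sign, both with probe sets averaged: Cp with Compound E against OP9-DL1 (-0.0087) and Abcb10 (0.075). The cause of these changes was not tested.

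Replicate numbers are shared between groups, but same-numbered arrays did not deviate together (r from -0.115 to 0.119 across genes). Such low r cannot show how the cultures were set up, so whether the numbers pair the samples is unknown. With the replicate block 5755, 8295 and 3972 genes passed, and of the 27 gene differences only the Tfrc call against OP9-GFP changed (adjusted p = 0.0583). Signal over background limits Cd163 most, at 4.14 to 4.70 with Compound E against background up to 3.64.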
